A study of Rattus norvegicus with 12 samples.

Results

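A set of 10 genes of the oxygen-sensing pathway that do not encode glycolytic enzymes, Hif1a, Epas1, Egln1, Egln3, Vhl, Vegfa, Adm, Slc2a1, Ddit4 and Ankrd37, was followed in rat livers from a model of donation after circulatory death. They were taken by name from a list that was drawn up with earlier results of these data known, and all 10 were found once each among the 33744 genes counted and passed the filter on low counts that left 13687 genes for testing. Livers of male Sprague Dawley rats aged 6 to 8 weeks were sequenced in 4 groups of 3, with 1 library per liver. All 12 livers had 30 min of warm ischemia in the body after cardiac arrest. The HOPE 1 h livers were then kept cold in HTK solution for 3 h and perfused through the portal vein with oxygenated cold HTK for 1 h. The HMP 1 h livers had the same 3 h and 1 h without active oxygenation of the perfusate, the SCS 4 h livers stayed in cold HTK for 4 h without a pump, and the WI 30 min livers had no storage or perfusion. Tissue was taken before any simulated transplantation, and none of the groups is a liver without ischemia. The labels number the livers within a group and do not say more on their origin. The p-values therefore set differences of group means against the spread of these samples within groups.

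Cells sense oxygen through prolyl hydroxylases, which use oxygen to mark the alpha subunits of hypoxia-inducible factors (HIF), so that the VHL ubiquitin ligase binds them and they are degraded. When oxygen is short the alpha subunits persist, enter the nucleus, pair with a beta subunit and switch on genes for blood vessel growth, glucose uptake and energy saving. Because the alpha subunits are controlled mainly as proteins, mRNA levels of Hif1a and Epas1 do not measure HIF activity, and the target genes are the usual RNA readout.

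The windows around the start of Ddit4, Slc2a1, Ankrd37 and Adm are shown as examples of target genes among the 10, and those of the other genes are not printed. The first 3 hold the core of the motif that HIF binds, and Adm does not. Each window is the RefSeq sequence of build GRCr8 from 250 bases before to 50 bases after the annotated start, written on the strand of the gene. Capitals mark ACGTG or GCGTG, or their reverse complements CACGT and CACGC. Windows were found for all 10 genes, 11 in all because Vegfa has 2. The motif ACGTG on either strand stood in 19.3% of 33469 promoter windows of the same length in the rat annotation, GCGTG in 29.7% and either in 41.6%. A match was present in 5 of the 10 genes (Hif1a, Egln1, Ankrd37, Slc2a1 and Ddit4) and in no window of Egln3, Vegfa, Adm or Vhl, which says only that these letters are not in these windows. The window listed for Epas1 held no match either, but the gene is on the minus strand in this table and on the plus strand in the Rnor_6.0 annotation of the counts, so whether that window lies at its promoter is in doubt. The Ddit4 window lies at chr20:28436988-28437287 on the minus strand, with ACGTG starting at position -138 and GCGTG at -66 from the gene start. The Slc2a1 window (chr5:138002272-138002571, plus strand) holds ACGTG at -51 and GCGTG on the other strand at -153, -76 and -16. The Ankrd37 window (chr16:53001257-53001556, plus strand) holds ACGTG at -236, -22 and -4, GCGTG at -147, and a match on the other strand at -23 that overlaps the one at -22. The Adm window lies at chr1:174179950-174180249 on the plus strand.
Ddit4: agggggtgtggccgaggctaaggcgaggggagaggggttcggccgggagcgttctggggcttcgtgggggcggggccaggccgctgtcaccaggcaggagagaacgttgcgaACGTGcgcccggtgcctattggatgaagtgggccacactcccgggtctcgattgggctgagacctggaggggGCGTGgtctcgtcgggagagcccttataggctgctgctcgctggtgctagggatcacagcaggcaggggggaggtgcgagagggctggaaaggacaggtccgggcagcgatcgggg
Slc2a1: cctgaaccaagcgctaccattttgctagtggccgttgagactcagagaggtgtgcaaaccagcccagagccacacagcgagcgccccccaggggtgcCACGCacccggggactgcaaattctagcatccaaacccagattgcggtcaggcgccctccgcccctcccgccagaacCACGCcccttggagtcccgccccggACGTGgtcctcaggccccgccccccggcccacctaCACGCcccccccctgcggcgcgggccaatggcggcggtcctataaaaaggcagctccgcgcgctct
Ankrd37: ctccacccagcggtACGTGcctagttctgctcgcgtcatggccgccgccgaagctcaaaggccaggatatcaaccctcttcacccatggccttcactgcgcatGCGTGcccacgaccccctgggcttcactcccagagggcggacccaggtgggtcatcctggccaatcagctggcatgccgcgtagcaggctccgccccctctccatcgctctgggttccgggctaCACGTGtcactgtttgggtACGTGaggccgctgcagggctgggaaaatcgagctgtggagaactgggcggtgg
Adm: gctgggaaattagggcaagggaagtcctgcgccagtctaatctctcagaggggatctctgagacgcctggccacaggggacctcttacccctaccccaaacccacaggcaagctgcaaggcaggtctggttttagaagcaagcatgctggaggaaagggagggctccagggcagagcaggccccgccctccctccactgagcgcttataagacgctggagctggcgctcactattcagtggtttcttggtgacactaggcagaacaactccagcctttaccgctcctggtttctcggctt

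Levels of different genes can be compared only per gene length, so the deposited FPKM (fragments per kilobase of gene, scaled to library size) were used for that purpose and for nothing else. Over the 12 livers, the mean FPKM level was highest for Epas1 (40.1, range 29.9 to 48.9), followed by Vegfa (32.5, range 24.2 to 41.2) and Egln1 (22.2, range 16.7 to 27.0). The Egln1 value rests on a gene model of only 669 bases, the shortest of the 10. Hif1a averaged 14.1 FPKM (range 10.9 to 17.0), below Epas1 in every liver. The 3 genes Slc2a1, Vhl and Ddit4 followed at 4.43, 4.27 and 3.37 FPKM, with overlapping ranges. Adm averaged 1.89 FPKM and Ankrd37 1.49 FPKM, and Egln3 was lowest at 0.296 FPKM. Egln3 had 5 to 27 counts per liver and Ankrd37 9 to 45 counts, so counting error alone was large for both, against 2585 to 4637 counts for Epas1.

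**Figure D1:**
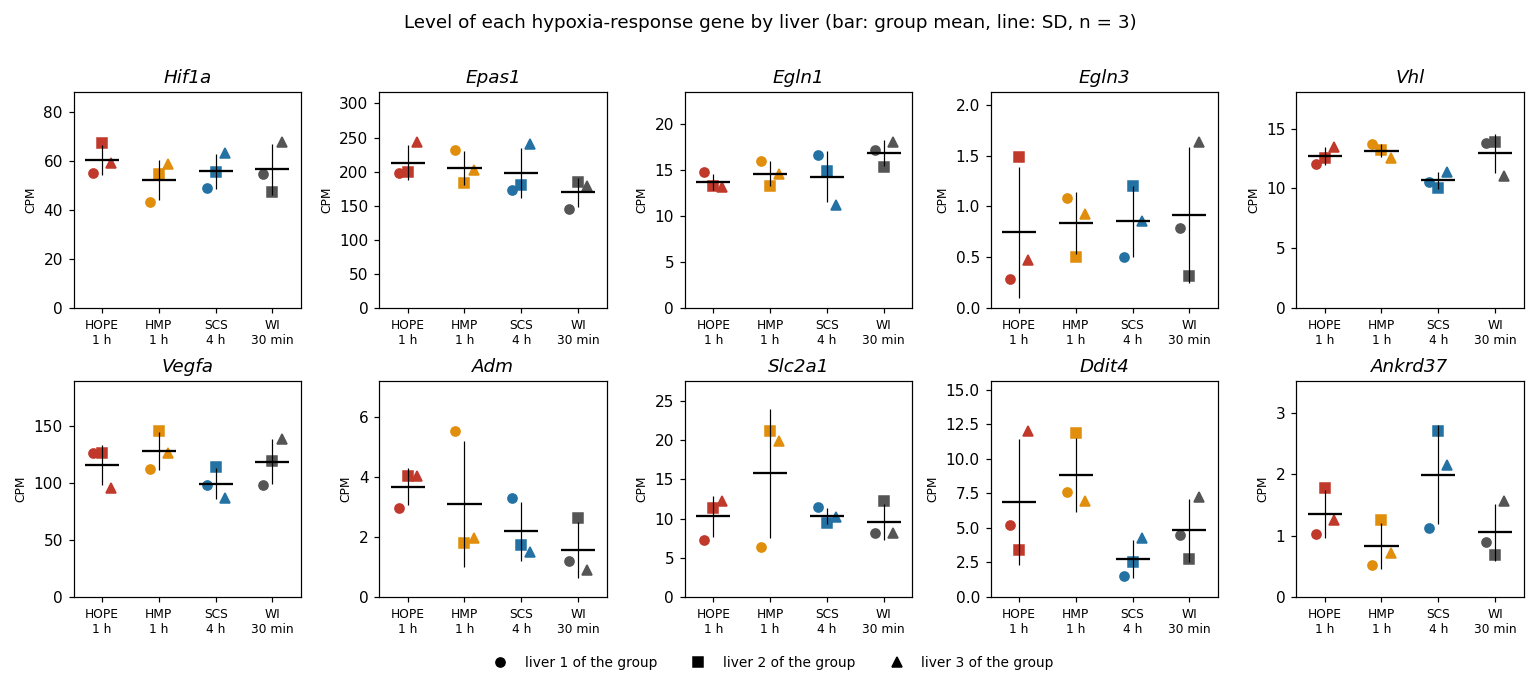
Level in CPM (linear axis from 0, scaled separately for each gene) of the 10 genes in each of the 12 livers, with groups HOPE 1 h, HMP 1 h, SCS 4 h and WI 30 min along the horizontal axis. Symbols are single livers, horizontal bars group means and vertical lines SD (n = 3); the 3 HMP 1 h livers of Ddit4 (6.97 to 11.9 CPM) lie above the 3 SCS 4 h livers (1.51 to 4.25 CPM), and the HMP 1 h livers of Slc2a1 split into 1 low and 2 high livers.

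The first question was whether oxygen in the perfusate changed these genes, since by the study's methods HOPE 1 h and HMP 1 h differ in oxygenation alone. None of the 10 genes differed between HOPE 1 h and HMP 1 h livers by edgeR's quasi-likelihood test at a Benjamini-Hochberg adjusted p under 0.05, and 0.0% of all tested genes did. None reached an unadjusted p under 0.05 either, against 1024 genes or 7.48% over all tested genes, and DESeq2 called 0 of the 10 and 0.139% of all tested genes (19). DESeq2 gave no adjusted p for Egln3 and Ankrd37 here, so it could not call them. In none of the 10 did the livers of both groups separate without overlap in CPM (counts scaled to a common library size by TMM), which 11.1% of tested genes did. Of the 10 log2 fold changes 4 were positive and 6 negative, with a median of -0.07, against -0.01 over all tested genes. For 5 genes the 95% interval of the fold, HOPE 1 h over HMP 1 h, lay within 2-fold in both directions: 0.902 to 1.48 for Hif1a, 0.809 to 1.33 for Epas1, 0.742 to 1.19 for Egln1, 0.701 to 1.17 for Vegfa and 0.791 to 1.18 for Vhl. For the other 5 a change of 2-fold or more in at least 1 direction stayed inside the interval, which ran from 0.373 to 1.14 for Slc2a1, 0.370 to 1.65 for Ddit4, 0.552 to 2.51 for Adm, 0.784 to 3.39 for Ankrd37 and 0.310 to 2.54 for Egln3.

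Perfusion itself was compared by setting the 6 perfused livers (HOPE 1 h and HMP 1 h) against the 6 unperfused livers (SCS 4 h and WI 30 min), a contrast in which the WI 30 min livers also lack cold storage. The largest positive log2 fold changes among the 10 genes were those of Ddit4 and Adm, and neither passed the adjusted threshold in edgeR. EdgeR called none of the 10, against 1.02% of all tested genes (140), and DESeq2 called 1, Ddit4, against 5.53%. At an unadjusted p under 0.05 there were 2 of 10, against 17.7% of all tested genes, so the share was close to the background. No gene of the 10 separated the 6 perfused from the 6 unperfused livers, which 1.83% of tested genes did. The median log2 fold change of the 10 was 0.15, with 7 positive and 3 negative, against 0.03 over all tested genes.

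**Figure D2:**
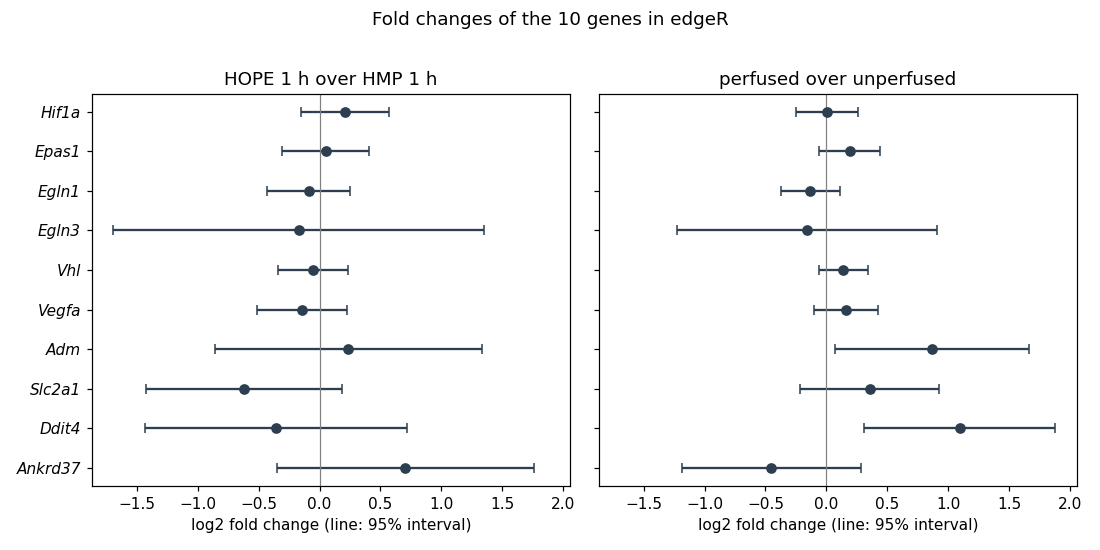
Log2 fold changes of the 10 genes from edgeR with 95% intervals (horizontal lines), HOPE 1 h over HMP 1 h on the left and perfused over unperfused on the right. Every interval on the left crosses 0; on the right those of Ddit4 (0.31 to 1.88) and Adm (0.07 to 1.66) lie above 0 before adjustment for the number of genes tested.

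Hif1a encodes HIF-1 alpha (ENSRNOG00000008292, chromosome 6 of Rnor_6.0 from 96810907 to 96856052). Its level was 60.5 ± 6.26 CPM in HOPE 1 h, 52.4 ± 8.06 in HMP 1 h, 55.8 ± 7.17 in SCS 4 h and 56.6 ± 10.3 in WI 30 min livers (SD, n = 3 each), and every neighbouring pair in the order of means overlapped. It averaged 56.5 CPM in perfused and 56.2 CPM in unperfused livers, a log2 fold change of 0.00 with a 95% interval of -0.25 to 0.26 in edgeR.

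Epas1 encodes HIF-2 alpha, which is prominent in endothelial cells as well as hepatocytes (ENSRNOG00000021318, chromosome 6 from 10306405 to 10387265). It was at 197, 199 and 243 CPM in the HOPE 1 h livers, at 232, 183 and 203 in HMP 1 h, at 173, 181 and 240 in SCS 4 h and at 146, 185 and 179 in WI 30 min. All 3 HOPE 1 h livers were above all 3 WI 30 min livers, and all other pairs of groups overlapped. The log2 fold change of HOPE 1 h over WI 30 min was 0.33 (SE 0.164), with an adjusted p = 0.600 in edgeR. Epas1 was 1 of 3 members that separated these groups, together with Adm (higher in HOPE 1 h) and Egln1 (lower), against 16.2% of all tested genes and 0.0% called. Of 15 listed markers of sinusoidal and vascular endothelium, 14 were found and 13 tested. The 14 summed to 628 to 1537 CPM in HOPE 1 h and 672 to 1415 in HMP 1 h livers. They summed to 630 to 872 CPM in SCS 4 h and 591 to 675 in WI 30 min livers. None of the 14 endothelial markers found was at 0 in all livers, and their part in the Epas1 values was not tested. In bulk tissue, fewer cells of a type and less RNA per cell cannot be told apart.

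Egln1 encodes the prolyl hydroxylase PHD2, the main oxygen sensor acting on HIF alpha (ENSRNOG00000019773, chromosome 19 from 57662278 to 57699113). It had 14.8, 13.3 and 13.2 CPM in HOPE 1 h, 16.0, 13.3 and 14.6 in the HMP 1 h livers, 16.7, 14.9 and 11.3 in SCS 4 h, and 17.3, 15.3 and 18.1 in WI 30 min. The WI 30 min livers had the highest mean, all 3 above the HOPE 1 h livers. For HOPE 1 h over WI 30 min the log2 fold change was -0.30 (SE 0.156, adjusted p = 0.617 in edgeR), and over SCS 4 h it was -0.06. Egln3 encodes PHD3, a hydroxylase whose gene is itself induced by HIF (ENSRNOG00000005053, chromosome 6 from 75050329 to 75075795). Its levels ranged from 0.285 to 1.48 CPM in HOPE 1 h, 0.500 to 1.09 in HMP 1 h, 0.505 to 1.20 in SCS 4 h and 0.312 to 1.63 in WI 30 min. Livers of the HOPE 1 h and WI 30 min groups each spread over most of the whole range, and the group means, from 0.746 CPM in HOPE 1 h to 0.911 CPM in WI 30 min, spanned 0.319 of the SD within groups.

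Vhl encodes the substrate-binding subunit of the ligase that degrades hydroxylated HIF alpha (ENSRNOG00000010258, chromosome 4 from 145580799 to 145587845). It had the narrowest spread of the 10, with 12.02, 12.6 and 13.5 CPM in HOPE 1 h, 13.7, 13.2 and 12.6 in the HMP 1 h livers, 10.5, 10.1 and 11.4 in SCS 4 h and 13.8, 13.9 and 11.1 in WI 30 min. The SCS 4 h livers were below all HOPE 1 h and all HMP 1 h livers, while 1 WI 30 min liver fell in their range. Vhl was the single member that separated HOPE 1 h from SCS 4 h, against 19.2% of tested genes and 0.0% called. The fold was 1.19 (95% interval 0.975 to 1.45, adjusted p = 0.514 in edgeR) for HOPE 1 h over SCS 4 h. For HMP 1 h over SCS 4 h it was 1.23 (95% interval 1.01 to 1.51, adjusted p = 0.321).

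Vegfa encodes the vascular endothelial growth factor that drives the growth of new vessels (ENSRNOG00000019598, chromosome 9 from 17340341 to 17355681). Its level was 116 ± 17.6 CPM in HOPE 1 h, 128 ± 16.8 in HMP 1 h, 99.6 ± 13.9 in SCS 4 h and 119 ± 19.9 in WI 30 min (SD, n = 3 each), and neighbouring groups overlapped throughout. The largest of its differences, HMP 1 h over SCS 4 h, was 0.36 on the log2 scale (SE 0.170, adjusted p = 0.357 in edgeR). Adm encodes adrenomedullin, a vasodilator peptide made in vessels and stroma (ENSRNOG00000027030, chromosome 1 from 175445088 to 175447259). It had 2.96, 4.03 and 4.04 CPM in HOPE 1 h (52, 68 and 77 counts), 5.54, 1.81 and 1.97 in HMP 1 h (97, 29 and 30 counts), 3.31, 1.75 and 1.51 in SCS 4 h and 1.18, 2.62 and 0.907 in WI 30 min. HOPE 1 h livers were uniformly above WI 30 min livers, while in HMP 1 h a single liver carried the group mean.

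The log2 fold change of Adm was 1.23 (SE 0.519, adjusted p = 0.565 in edgeR) for HOPE 1 h over WI 30 min. Adm was the single member with an unadjusted p under 0.05 in that comparison, against 8.57% of all tested genes. For perfused over unperfused livers it was 0.87 (SE 0.364, adjusted p = 0.248 in edgeR), with 3.39 ± 1.42 CPM in perfused and 1.88 ± 0.915 CPM in unperfused livers (SD, n = 6 each). For HMP 1 h over SCS 4 h it was 0.51, and without HMP liver 1 it was -0.20. That liver also had the highest sums of Kupffer cell markers (2007 CPM) and stellate cell markers (1678 CPM), against at most 1233 and 1087 CPM in any other liver, and 18.7% mitochondrial counts against 4.79% to 10.2%. Markers of Kupffer cells (11 of 11) and stellate cells (10 of 10) were all tested and none was at 0 in all livers. Stellate markers spanned 711 to 1087 CPM in HOPE 1 h, 555 to 1678 in HMP 1 h, 538 to 861 in SCS 4 h and 456 to 694 in WI 30 min. Their part in the Adm values was not tested. Over the 12 livers, the genes with log2 CPM most like Adm were Vstm4 (Pearson's r = 0.957), Ltbp2 (r = 0.930) and Fhl1 (r = 0.915), given as a description of points that share libraries and groups.

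Slc2a1 encodes the glucose transporter GLUT1 of the plasma membrane, which hepatocytes use little beside GLUT2 (ENSRNOG00000007284, chromosome 5 from 138154673 to 138182897). It had 7.24, 11.4 and 12.2 CPM in HOPE 1 h, 6.34, 21.2 and 19.9 in the HMP 1 h livers, 11.4, 9.45 and 10.2 in SCS 4 h and 8.18, 12.3 and 8.22 in WI 30 min. The HMP 1 h group held both the lowest liver and the 2 highest livers of all 12. The log2 fold change of HOPE 1 h over HMP 1 h was -0.62 (SE 0.369, adjusted p = 0.752 in edgeR). Without HMP liver 1 it was -1.03 (adjusted p = 0.250), and HMP 1 h over WI 30 min was then 1.11 (adjusted p = 0.0926), against 0.73 (adjusted p = 0.415) with all livers. The low liver was HMP liver 1, the liver with the high mitochondrial share and marker sums, and no call was made with or without it.

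Ddit4 encodes REDD1, a stress-induced inhibitor of the growth kinase complex mTORC1 (ENSRNOG00000057078, chromosome 20 from 29509289 to 29511382). It had the widest range of the 10 over the 12 livers, 2.89 on the log2 CPM scale. Its levels were 5.18, 3.38 and 12.01 CPM in HOPE 1 h (91, 57 and 229 counts), 7.60, 11.9 and 6.97 in HMP 1 h (133, 190 and 106 counts), 1.51, 2.53 and 4.25 in SCS 4 h (27, 42 and 65 counts) and 4.46, 2.75 and 7.25 in WI 30 min (79, 44 and 120 counts). All HMP 1 h livers were above all SCS 4 h livers, HOPE 1 h livers overlapped with every other group, and the lowest mean was that of SCS 4 h. HMP 1 h over SCS 4 h gave a log2 fold change of 1.68 (SE 0.519, adjusted p = 0.180 in edgeR), a fold of 3.20 with a 95% interval of 1.46 to 7.01. In that comparison 3 of 10 genes had an unadjusted p under 0.05 (Ddit4, Vhl and Ankrd37), against 14.5% of all tested genes, and 2 of 10 separated the groups (Ddit4 and Vhl), against 17.9%. EdgeR called 0.0% of all tested genes there. HOPE 1 h over SCS 4 h gave 1.32 (SE 0.517, adjusted p = 0.388 in edgeR), the only member at an unadjusted p under 0.05, against 10.9% of tested genes. Without HOPE liver 3 that value was 0.64.

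For Ddit4, perfused livers averaged 7.84 ± 3.51 CPM and unperfused livers 3.79 ± 2.03 CPM (SD, n = 6 each). The log2 fold change was 1.09 (SE 0.360, adjusted p = 0.159 in edgeR), and over the fits that left out 1 liver it ranged from 0.75 to 1.31 without a call. DESeq2 called Ddit4 in perfused over unperfused livers (adjusted p = 0.0461, 5.53% of all tested genes called) and in HMP 1 h over SCS 4 h (adjusted p = 0.0377, 3.16% called), the only calls of a member in either tool. DESeq2 gave no adjusted p for Ddit4, Adm, Ankrd37 and Egln3 in HOPE 1 h over SCS 4 h, where it called 1.49% of genes. It called no member in HOPE 1 h over WI 30 min (0.709% of genes called), HMP 1 h over WI 30 min (2.85%) or SCS 4 h over WI 30 min (0.11%). The genes with log2 CPM most like Ddit4 over the 12 livers were Zfp36 (Pearson's r = 0.896), Med12l (r = 0.893) and Rexo5 (r = 0.890), again as a description. Ddit4 is also induced by glucocorticoids and by the integrated stress response. Of 16 tested genes of a glucocorticoid and clock list, 15 had a positive log2 fold change in perfused over unperfused livers, with a median of 0.51, and 0 were called. Of 12 stress response genes, 8 were positive, with a median of 0.21, and 0 were called. Over all tested genes 7484 of 13687 were positive, with a median of 0.03, and edgeR called 1.02%. In HMP 1 h over SCS 4 h, 13 of the 16 and 6 of the 12 were positive, with medians of 0.39 and -0.003. In SCS 4 h over WI 30 min, where Ddit4 was at -0.81, 11 and 7 were positive, with medians of 0.24 and 0.16. The part of either list in the Ddit4 values was not tested.

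Ankrd37 encodes an ankyrin repeat protein known mainly as a direct HIF-1 target (ENSRNOG00000031335, chromosome 16 from 49462889 to 49465888). It had 1.03, 1.78 and 1.26 CPM in HOPE 1 h (18, 30 and 24 counts), 0.514, 1.25 and 0.724 in HMP 1 h (9, 20 and 11 counts), 1.12, 2.71 and 2.16 in SCS 4 h (20, 45 and 33 counts) and 0.902, 0.687 and 1.57 in WI 30 min (16, 11 and 26 counts). Its order differed from that of Ddit4, with the highest mean in SCS 4 h and the lowest in HMP 1 h, and every neighbouring pair of groups overlapped. HMP 1 h over SCS 4 h gave a log2 fold change of -1.26 (SE 0.481, adjusted p = 0.263 in edgeR), opposite in sign to the value of Ddit4 in the same livers. The genes with log2 CPM most like Ankrd37 over the 12 livers were Per2 (Pearson's r = 0.870), Rprd1b (r = 0.868) and Zfp655 (r = 0.867). They are the highest values picked from all tested genes with a symbol, for a gene with 9 to 45 counts per liver. They are given only as a description and no link between these genes was tested.

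In the comparisons with WI 30 min without oxygenated perfusion, no member was called, none had an unadjusted p under 0.05 and none separated the groups. For HMP 1 h over WI 30 min edgeR called 0.0% of all tested genes, 13.8% had an unadjusted p under 0.05 and 16.0% separated. With all livers the largest member value was 0.99 for Adm (SE 0.520, adjusted p = 0.426 in edgeR), but it was 0.28 without HMP liver 1, where Slc2a1 was at 1.11. For SCS 4 h over WI 30 min these shares were 0.0%, 4.77% and 13.0%. The largest positive member value was 0.91 for Ankrd37 (SE 0.472, adjusted p = 0.962 in edgeR) and the largest negative one was -0.81 for Ddit4 (SE 0.518, adjusted p = 0.965). The median of the 10 was 0.07 for HMP 1 h and -0.06 for SCS 4 h, against 0.03 and 0.01 over all tested genes. In the comparisons already given, the median was 0.11 for HOPE 1 h over SCS 4 h, 0.10 for HOPE 1 h over WI 30 min and 0.18 for HMP 1 h over SCS 4 h, against 0.04, 0.02 and 0.04 over all tested genes. These medians moved with single livers, and those of HOPE 1 h over HMP 1 h and SCS 4 h over WI 30 min changed sign. With 1 liver left out at a time, the median of the 10 ran from -0.10 to 0.04 for HOPE 1 h over HMP 1 h (highest without HOPE liver 1) and from 0.07 to 0.18 for HOPE 1 h over SCS 4 h (lowest without SCS liver 1, highest without HOPE liver 1). It ran from 0.02 (without HOPE liver 2 or HOPE liver 3) to 0.30 (without WI liver 3) for HOPE 1 h over WI 30 min, and from 0.01 (without HMP liver 1) to 0.28 (without SCS liver 2) for HMP 1 h over SCS 4 h. It ran from 0.03 (without WI liver 1) to 0.27 (without WI liver 3) for HMP 1 h over WI 30 min, and from -0.18 (without WI liver 2) to 0.08 (without WI liver 3) for SCS 4 h over WI 30 min. For perfused over unperfused livers it stayed between 0.12 and 0.20.

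The other genes of the pathway were set beside the 10 in perfused over unperfused livers. The lists were written with earlier results of these data known, so the counts of calls per list are a description only. In edgeR, glycolytic hypoxia-responsive genes held the most calls of these lists, each call being lower. The 10 genes held none, against 1.02% of all tested genes called. Most calls over all tested genes were also lower, 103 against 37 higher. DESeq2 called 1 of the 10, Ddit4. Of 18 tested glycolytic genes 3 were called lower and 0 higher. The list as a whole was not lower, with 11 positive and 7 negative log2 fold changes and a median of 0.05. Ldha, the lactate dehydrogenase subunit, had 991 ± 67.2 CPM in perfused and 1848 ± 326 CPM in unperfused livers (SD, n = 6 each), a log2 fold change of -0.90 (SE 0.131, adjusted p = 0.0169 in edgeR). Gapdh (-0.65, adjusted p = 0.0411 in edgeR) and Pgk1 (-0.59, adjusted p = 0.0413) were the other 2. Of 20 tested regulators of HIF outside the 10 genes, 1 was called lower, the chaperone gene Hsp90ab1, with 685 ± 147 CPM in perfused and 1157 ± 112 CPM in unperfused livers (SD, n = 6 each) and a log2 fold change of -0.77 (SE 0.126, adjusted p = 0.0274 in edgeR). The median of the regulators was -0.08. Of 50 tested other non-glycolytic responsive genes, 1 was called lower, the collagen lysyl hydroxylase gene Plod1, with 48.7 ± 5.87 CPM in perfused and 69.9 ± 9.09 CPM in unperfused livers (SD, n = 6 each) and a log2 fold change of -0.52 (SE 0.108, adjusted p = 0.0457 in edgeR). Their median was 0.10.

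**Figure D3:**
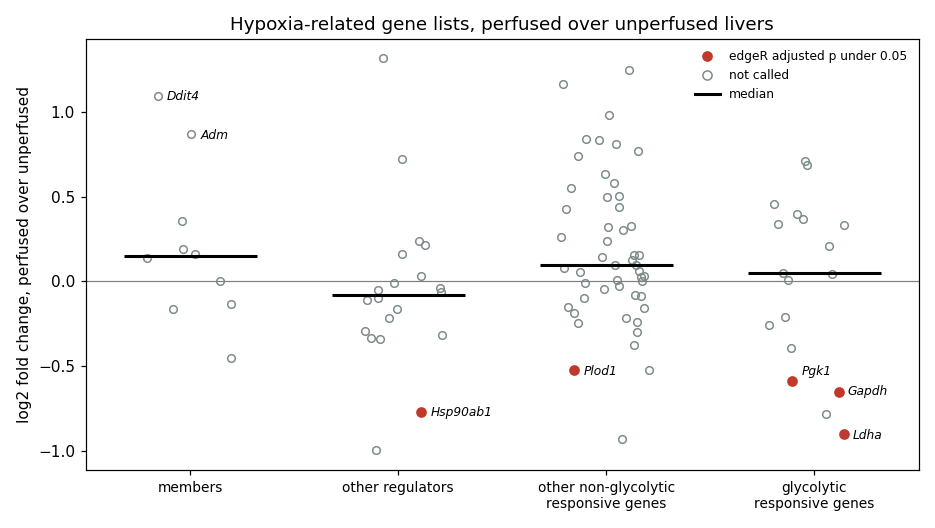
Log2 fold change (linear axis), perfused over unperfused livers, of the tested genes of 4 lists along the horizontal axis: the 10 genes (labelled members), other regulators of HIF (20), other non-glycolytic responsive genes (50) and glycolytic responsive genes (18). Filled points passed an edgeR adjusted p under 0.05, open points did not, bars are medians and sideways scatter has no meaning. The 5 filled points are all below 0, and none is among the 10 genes. Over all tested genes 103 calls were lower and 37 higher.

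The size of these differences changed little when 1 liver was left out, but several calls were lost. Among the 12 fits that left out 1 liver each, Ldha was called in 7, Hsp90ab1 in 4, Gapdh in 3, and Pgk1 and Plod1 in 1 each, and all 5 were called by DESeq2. The log2 fold change stayed between -0.99 and -0.81 for Ldha, -0.84 and -0.70 for Hsp90ab1, -0.71 and -0.56 for Gapdh, -0.67 and -0.51 for Pgk1, and -0.60 and -0.47 for Plod1. Without both HMP liver 1 and HOPE liver 3, Ldha and Hsp90ab1 were called and Gapdh, Pgk1 and Plod1 were not. Over all genes, 0 were called without HOPE liver 1 and 0 without HOPE liver 3. Between HOPE 1 h and HMP 1 h, 0 genes of any of these lists were called. The lowest p there was that of Pnrc1, a nuclear receptor coactivator gene, with 52.8 ± 8.35 CPM in HOPE 1 h and 86.3 ± 2.05 CPM in HMP 1 h livers (SD, n = 3 each) and an adjusted p = 0.558 in edgeR.

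The livers were of similar depth, with 15262961 to 18343167 total counts, and 99.9% or more of each library fell on tested genes. The 10 listed hepatocyte markers summed to 151000 to 229200 CPM and none was at 0 in all livers, which fits the tissue named in the labels. Erythroid markers, 7 tested of 9, summed to 1220 to 1860 CPM in HOPE 1 h, 267 to 2579 in HMP 1 h, 574 to 1803 in SCS 4 h and 3438 to 4656 in WI 30 min livers, so that the WI 30 min livers stood above all others. The part of this difference in the values of the 10 genes was not tested.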

How the data were processed

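RNA from 12 rat livers was sequenced as paired-end reads. The authors aligned them with Hisat2 v2.0.5 to Rnor_6.0, assembled transcripts with StringTie v1.3.3b and deposited 1 table of raw counts per gene and liver. The same deposited table holds FPKM, which the authors scaled by gene length and library total. The sources used here name neither the counting tool nor its strand setting. Fold changes and p-values of the study's own comparisons in the table were left out. Every column of values for a single liver carried a name that matched its title, and 861 of 33744 genes have no symbol.

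Raw counts entered a quasi-likelihood F test in edgeR 4.0.16 (R 4.3.3), after filterByExpr and TMM scaling, in 1 model with a mean per group and 8 residual degrees of freedom. The Benjamini-Hochberg adjustment ran over all 13687 tested genes in each comparison, with calls made under 0.05. CPM used TMM library sizes, intervals are 95% on the log2 fold change, and log2 CPM for likeness had a prior count of 2. FPKM entered no test. The pipeline was tested on simulated data for HOPE 1 h over HMP 1 h. There edgeR recovered 8% of 1.5-fold, 30% of 2-fold and 90% of 4-fold changes, with 4 false calls among 13513 genes. DESeq2 recovered 22%, 48% and 96%, with 26 false calls, more than edgeR. The calls of Ddit4, the only ones of a member, came from DESeq2 alone, in comparisons that were not simulated. The simulation changed 50 genes at each fold, drawn from those with a mean of at least 1 CPM. Egln3, at 0.837 CPM, was below that level. The adjusted threshold is easier to pass when many genes change, and edgeR called 0 genes in the real comparison. The recovered shares may therefore be too high for single genes of the 10, and smaller changes could be missed.

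All 10 genes are named. From each other list up to 4 genes could be named, those called or else those of lowest p among genes with a mean of at least 1 CPM, and for the 3 of the 10 genes with the widest range of log2 CPM the 3 most similar genes by Pearson's r. The members and lists were chosen with earlier results of these data known. As alternatives, DESeq2 1.42.0, RLE scaling, an unfiltered table, a model of only the compared groups, a replicate block, removal of mitochondrial genes and the removal of each liver, or of both HMP liver 1 and HOPE liver 3, were tried. Counts at an unadjusted p under 0.05 and of livers that do not overlap were added after seeing the data. A value that was not called was read as turned round if its sign changed and it moved by more than its standard error.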

Additional observations from a re-analysis of the deposited data

How the results depend on the processing

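No member was called in any of the 7 comparisons by edgeR with all livers, RLE scaling, no filter, only the groups compared where that applied, the replicate block, without mitochondrial genes or with any liver left out. The exceptions were in DESeq2, which called 1 member, Ddit4, in HMP 1 h over SCS 4 h, against 3.16% of all tested genes. It also called 1, again Ddit4, in perfused over unperfused livers, against 5.53%. Counts of members at an unadjusted p under 0.05 were added after seeing the data. The count was 1 in HOPE 1 h over SCS 4 h, against 10.9% of all tested genes. It was 1 in HOPE 1 h over WI 30 min (8.57%) and 3 in HMP 1 h over SCS 4 h (14.5%). In perfused over unperfused livers it was 2 (17.7%). By livers that do not overlap, the counts were 1, 3 and 2 in the first 3 of these. The shares of all tested genes were 19.2%, 16.2% and 17.9%.

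Turned round without WI liver 3 was Egln3, at 0.41, 0.58 and 0.61 for HOPE 1 h, HMP 1 h and SCS 4 h over WI 30 min. Leaving out 1 liver at a time gave it -1.25 to 0.41, -0.53 to 0.58 and -0.50 to 0.61 in these comparisons. Ddit4 in HOPE 1 h over WI 30 min turned round without HOPE liver 3 (-0.17, range over single livers left out -0.17 to 0.93) and without both HMP liver 1 and HOPE liver 3 (-0.17). Adm in HMP 1 h over SCS 4 h did so without HMP liver 1 (-0.20, range -0.20 to 0.93) and without both (-0.19). The cause was not tested. Of the other values of members under alternatives, 1311 were neither called nor turned round, and 2, those of Ddit4 in DESeq2, were called. The 1311 include DESeq2 values without an adjusted p, which could not be called.

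EdgeR called 0 genes in each pair of groups and 140 in perfused over unperfused. In the order HOPE 1 h over HMP 1 h, over SCS 4 h and over WI 30 min, HMP 1 h over SCS 4 h and over WI 30 min, SCS 4 h over WI 30 min, and perfused over unperfused, DESeq2 called 19, 204, 97, 433, 390, 15 and 757 genes. With 1 liver left out the ranges were 0 to 2, 0 to 1, 0 to 4, 0 to 36, 0 to 29, 0 to 1, and 0 to 166. Without a filter 8, 19, 19 and 1 genes were called in HOPE 1 h over WI 30 min, HMP 1 h over SCS 4 h and over WI 30 min, and SCS 4 h over WI 30 min. With only the groups compared 5 were called in HOPE 1 h over SCS 4 h and 2 over WI 30 min. Without HMP liver 1 and HOPE liver 3 the counts were 1 in HOPE 1 h over SCS 4 h, 1 over WI 30 min, 22 in HMP 1 h over SCS 4 h, 46 over WI 30 min and 61 in perfused over unperfused.

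With the replicate number as a block, 1 gene was called in HOPE 1 h over WI 30 min, 1 in SCS 4 h over WI 30 min and 66 in perfused over unperfused, and no member. In perfused over unperfused livers the block ended the calls of Pgk1 (-0.58, adjusted p = 0.0703 in edgeR) and Plod1 (-0.52, adjusted p = 0.081), and Ldha, Gapdh and Hsp90ab1 were still called. Deviations of same-numbered livers had r between -0.19 and 0.14 over 18 pairs, of which 1 was above 0.1. For differently numbered livers r lay between -0.23 and 0.33 over 36 pairs, of which 3 were above 0.1. Same-numbered livers thus were not more alike, but this cannot exclude a shared origin, on which the labels do not say more.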
